A study of Oikopleura dioica with 67 samples.

Results

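Oikopleura dioica is a larvacean, a free-swimming tunicate that keeps its tail through life and feeds inside a mucous house secreted by its trunk epidermis. The comparison described here is the interval of early organogenesis. It sets 3 libraries from larvae at 5 hpf (hours post fertilization) against 3 libraries from larvae at 3 hpf, the time at which the labels put hatching. The interval was chosen with earlier results of these data known. Its 6 libraries, of 67 in the series, are all those with these stage labels. All came from wild-type animals of a cultured Japanese population, as whole embryos, with no treatment named. The staged set they belong to holds 43 libraries in 15 groups, and the labels do not say that libraries of a stage came from separate cultures, so the p-values measure the spread between these libraries, which may be partly technical. The deposited sequencing sheet writes library 6 as "1+3" and library 20 as "Re1" of their stage, and does not say whether those 2 libraries share material.

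Between hatching and the completion of the body a tunicate larva builds its gut, heart, endostyle, gills and nervous system from cells laid down in the tadpole, while many cells leave the cell cycle. In larvaceans the trunk epidermis differentiates into the epithelium that secretes the house, which is rich in sulfated polysaccharides and specific glycoproteins. The gut secretes lysozymes, proteases and lipases. Gene symbols below are those the authors attached to their unigenes, after vertebrate genes, and the roles given are those of the vertebrate proteins.

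Values are RPKM, read numbers scaled to unigene length and to library size, for the 19277 unigenes (transcript models) of the deposited table, 10122 of which carry a symbol. A unigene was called when its adjusted p was under 0.05 in limma on log2(RPKM + 1), fitted over the 43 staged libraries with a mean per stage. "Rose" and "fell" are used for called unigenes, a difference is 5 hpf minus 3 hpf on that log2 scale, and ± is the standard error for a difference and the SD over 3 libraries for a mean. The scale understates the change of a unigene listed near 0. Where single libraries are listed, they stand in the order 6, 7 and 20 at 5 hpf and 5, 33 and 34 at 3 hpf.

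The 6 libraries were not alike within a stage. Reads per library were 37807226, 48275210 and 7785352 at 5 hpf, against 18016974, 90351576 and 42630566 at 3 hpf. Cytosolic ribosomal protein unigenes took 50.9% of the summed RPKM in 5 hpf library 20 and 55.6% in 3 hpf library 5, and between 30.9% and 35.5% in the other 4. Library 20 was the only one of the 6 sequenced in another run. The median SD over unigenes was 0.60 at 5 hpf and 0.66 at 3 hpf, against 0.10 to 0.56 in the other 13 groups and 0.50 pooled over all groups, so the shared estimate of the spread is smaller than that of these stages. The fit on the 6 libraries alone is therefore given beside the counts of all unigenes and of the lists.

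**Figure D1:**
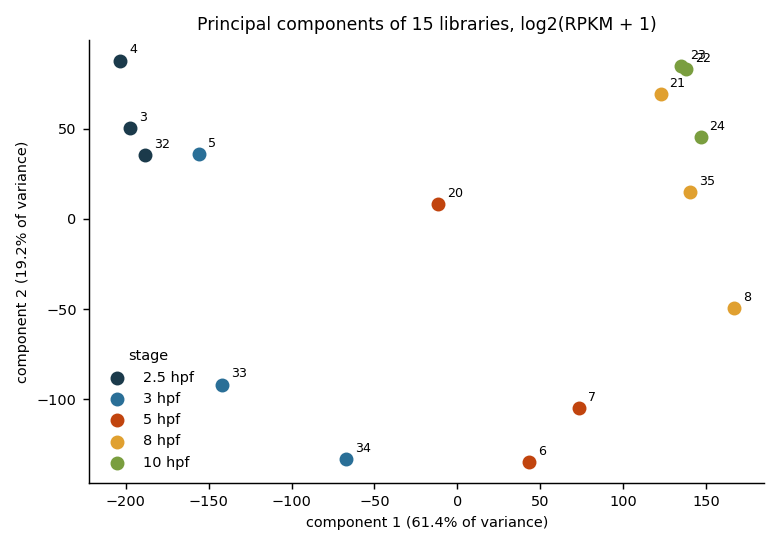
First and second principal components of log2(RPKM + 1) over all unigenes tested, for the 15 libraries of 5 stages; each point is a library, labelled by its number. On component 1, 3 hpf library 34 (at -66.9) and 5 hpf library 20 (at -11.9) lie nearest to the other stage, while 3 hpf library 5 (at -155.7) lies beside the 2.5 hpf libraries. On component 2, library 34 (at -133.3) lies by 5 hpf library 6 (at -135.0) and far from library 20 (at 8.1).

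In the plot of principal components the first component, 61.4% of the variance over 15 libraries, followed developmental time. On that component library 34 stood between the other 3 hpf libraries and those of 5 hpf. Across unigenes its values correlated with 3 hpf library 33 at r = 0.93, its highest value among the 6, with 5 hpf library 6 at r = 0.87 and with 3 hpf library 5 at r = 0.86. Library 34 was the highest 3 hpf library for 4499 of the 5380 unigenes that rose, and library 20 was the lowest 5 hpf library for 3764 of them. The part of staging in these positions was not tested.

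Of 18704 unigenes tested, 6684 were called (35.7%), 5380 higher at 5 hpf (28.8%) and 1304 lower (6.97%). At least 4-fold differences were called for 2062 higher (11%) and 293 lower (1.57%). The lower counts moved by over 1.5 times without 3 hpf library 5, to 2211 and 630, and the first of them without 3 hpf library 33, to 836. The 5 hpf and 3 hpf libraries did not overlap for 5292 unigenes (28.3%), of which 3996 were higher (21.4%) and 1296 lower (6.93%). Called unigenes without overlap numbered 4247 (22.7%), 3357 higher (17.9%) and 890 lower (4.76%). The fit on the 6 libraries called 1048 (5.6%), of which 898 were higher (4.8%) and 150 lower (0.802%), and 1047 of these were also called in the fit on 43, in the same direction. At least 4-fold differences among them numbered 758 higher (4.05%) and 135 lower (0.722%). The split depended on scaling: the median difference over all unigenes was 0.31 as deposited, -0.06 after quantile normalization and -0.18 after centring each library on its median. These gave 2820 higher with 2981 lower, and 3614 higher with 3404 lower. Lists of genes are therefore read below against all unigenes, and a direction that flips under scaling is named with its count.

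**Figure D2:**
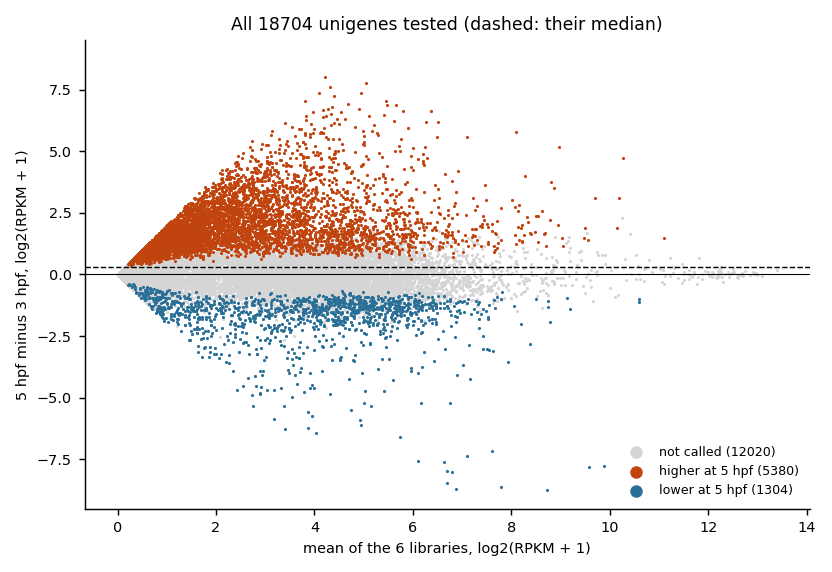
Difference between 5 hpf and 3 hpf against the mean of the 6 libraries, both on the log2(RPKM + 1) scale, for all unigenes tested; colours mark the 5380 called higher and 1304 called lower, and the dashed line is the median difference of 0.31. More points of large size lie above 0 than below it, with 2062 at least 4-fold higher and 293 at least 4-fold lower.

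More unigenes were called here than in the neighbouring steps: 3 hpf against 2.5 hpf gave 5161 called (27.6%), 8 hpf against 5 hpf gave 5562 (29.7%) and 10 hpf against 8 hpf gave 802 (4.29%). Neighbouring steps share libraries and differ in length, so only these counts are set side by side. The lead over 8 hpf against 5 hpf was small after quantile normalization, at 5801 against 5556. This step had 5370 called without 3 hpf library 33 and 5227 without 5 hpf library 7, both below 5562. The other steps' counts without single libraries are not given.

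Digestive enzymes were among the largest increases. LYG2, a goose-type lysozyme that breaks bacterial walls, had 94.8, 384 and 712 RPKM at 5 hpf, against 0, 0.0501 and 0.461 RPKM at 3 hpf. Every 5 hpf library was above every 3 hpf library, and the difference was 8.01 ± 0.71 (adjusted p = 3.44e-11, and 0.00783 in the fit on the 6 libraries). Later stages were higher still, with means of 1240 RPKM at 8 hpf and 2491 RPKM at 10 hpf. The chymotrypsin CTRB2 stood at 88.5, 220 and 205 RPKM at 5 hpf, against 0.242, 0 and 0.476 RPKM at 3 hpf. Again the stages were far apart, by 7.03 ± 0.62 (adjusted p = 4.04e-11). CTRL, another chymotrypsin-like protease, had 201, 404 and 756 RPKM at 5 hpf, against 0.408, 0.155 and 7.77 RPKM at 3 hpf; library 34 was the high one at 3 hpf, as it was for most of these genes.

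The trypsins PRSS3P2 and PRSS3 averaged 225 ± 79.3 and 365 ± 240 RPKM at 5 hpf, against 1.79 ± 2.94 and 6.05 ± 9.22 RPKM at 3 hpf. Of 218 tested unigenes of the digestion list (proteases, lipases, amylases, lysozymes and uptake receptors), 104 rose and 6 fell, and 37 rose with 2 lower in the fit on the 6 libraries. The 6 that fell became 10 without 3 hpf library 5 and 3 without 3 hpf library 33. The list's median difference was 0.78, beside 0.31 over all unigenes. The share that rose was 47.7%, against 28.8% of all, and the split was 54 higher with 10 lower after quantile normalization and 81 with 13 after centring. The list's summed level was 3177 to 6116 RPKM at 5 hpf and 533 to 1211 RPKM at 3 hpf. In whole larvae, more cells of a type and more RNA per cell cannot be told apart, here or for the lists that follow. CUBN, the endocytic receptor cubilin, went the other way in one unigene, at 5.04, 1.69 and 2.14 RPKM at 5 hpf, against 109, 571 and 271 RPKM at 3 hpf (-6.12 ± 0.43, adjusted p = 1.67e-13). CUBN was the symbol of 25 tested unigenes, 6 of which rose and 2 of which fell.

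Other large increases were those of Anxa13, DHRS4, APOD and PROS1. Anxa13, an annexin of gut epithelium, had 197, 385 and 847 RPKM at 5 hpf, against 1.31, 0.603 and 24.9 RPKM at 3 hpf. DHRS4, a short-chain dehydrogenase, had 122, 212 and 290 RPKM at 5 hpf, against 0.506, 0.271 and 2.54 RPKM at 3 hpf, a difference of 6.70 ± 0.44. APOD, a lipocalin that carries small lipids, had 138, 255 and 285 RPKM at 5 hpf, against 0.791, 1.47 and 3.74 RPKM at 3 hpf. PROS1, named after the plasma protein S, averaged 184 ± 33.9 RPKM at 5 hpf and 1.27 ± 2.04 RPKM at 3 hpf. For all of these the 2 stages did not overlap.

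**Figure D3:**
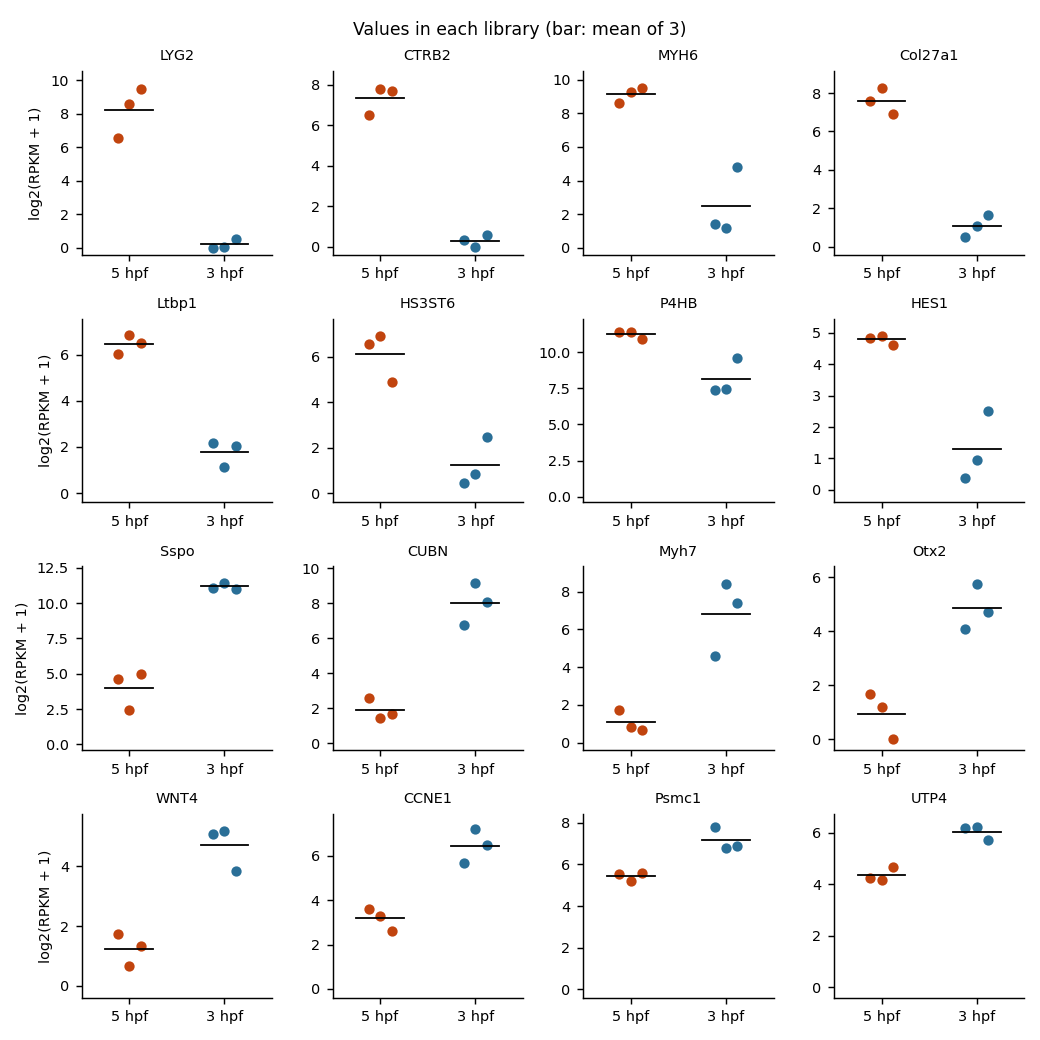
Values in each library for 16 unigenes, as log2(RPKM + 1), with 5 hpf on the left and 3 hpf on the right of each panel; points are libraries (from left, 6, 7 and 20, and 5, 33 and 34) and bars are means of 3. The upper 8 unigenes were higher and the lower 8 lower at 5 hpf, with no overlap between stages in any of the 16.

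Muscle genes split into a set that rose and a set that fell. Larvae of both stages swim with the tail, and the summed level of the sarcomere list was 19932 to 42790 RPKM at 5 hpf and 18936 to 21253 RPKM at 3 hpf. Of 137 tested unigenes, 50 rose and 21 fell, beside 28.8% and 6.97% of all, with 21 higher and 3 lower in the fit on the 6 libraries. The excess of higher calls was lost under scaling, which gave 37 higher with 36 lower by quantile and 46 with 41 by centring. The lower count was 38, 10 and 13 without 3 hpf library 5, 3 hpf library 33 and 5 hpf library 20. A unigene named MYH6, a cardiac-type myosin heavy chain, had 382, 616 and 720 RPKM at 5 hpf, against 1.73, 1.32 and 27.4 RPKM at 3 hpf (6.62 ± 0.55, adjusted p = 7.64e-12). Myh4, named after a fast skeletal myosin, was the symbol of 3 more unigenes that rose, by 6.17 ± 0.53, 5.95 ± 0.47 and 5.25 ± 0.41. Tnnt2, a troponin T that ties troponin to the thin filament, stood at 85.7, 86.9 and 39.3 RPKM at 5 hpf, against 0, 0.128 and 3.49 RPKM at 3 hpf.

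Myh7, by contrast, fell in one unigene to 2.32, 0.793 and 0.577 RPKM at 5 hpf, against 23.1, 343 and 168 RPKM at 3 hpf (-5.73 ± 0.48, adjusted p = 1.39e-11). That unigene averaged 4.75 RPKM at 2.5 hpf and 0.213 RPKM at 8 hpf, so it was high at 3 hpf only among these stages. Myl6, a non-muscle and smooth muscle myosin light chain, fell to 2.39, 0.824 and 2.05 RPKM at 5 hpf, against 83.0, 147 and 28.9 RPKM at 3 hpf. The 2 stages did not overlap for either.

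Single genes of the extracellular matrix changed by large amounts in both directions. Col27a1, a fibrillar collagen, had 192, 301 and 121 RPKM at 5 hpf, against 0.434, 1.09 and 2.21 RPKM at 3 hpf, and its difference of 6.50 ± 0.29 had the smallest adjusted p of the 30 unigenes with the largest differences (8.18e-18). Col6a1, a microfibril collagen, had 922, 523 and 564 RPKM at 5 hpf, against 0.211, 2.92 and 152 RPKM at 3 hpf. It did not pass in the fit on the 6 libraries (adjusted p = 0.0636). Library 34 was far above the other 3 hpf libraries, and its part in the lost call was not tested. The mean of Col6a1 was 28.1 RPKM at 8 hpf and 14.4 RPKM at 10 hpf, and in the 12 hpf hemisphere libraries 221 RPKM (vegetal) and 1207 RPKM (animal). NR6A1, an orphan nuclear receptor, had 468, 250 and 97.2 RPKM at 5 hpf, 0.108, 1 and 4.95 RPKM at 3 hpf and a mean of 18.5 RPKM at 10 hpf.

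The matrix unigenes that fell had been abundant in the hatched larva. Sspo, named after the giant glycoprotein SCO-spondin, had 23.9, 4.32 and 30.8 RPKM at 5 hpf, against 2173, 2762 and 2091 RPKM at 3 hpf (-7.17 ± 0.50, adjusted p = 1.75e-13). A unigene of Hmcn1, the basement membrane protein hemicentin, had 11.4, 3.02 and 23.6 RPKM at 5 hpf, against 1850, 2295 and 1321 RPKM at 3 hpf (-7.38 ± 0.48). Both were lower still at 8 hpf, with means of 1.15 RPKM for Sspo and 1.18 RPKM for Hmcn1. The cartilage-type matrix proteins CILP2, COMP and CHADL averaged 0.734 ± 0.48, 0.442 ± 0.355 and 0.228 ± 0.102 RPKM at 5 hpf, against 136 ± 61.7, 68.1 ± 86.1 and 42.2 ± 48.8 RPKM at 3 hpf. SVEP1, a large adhesion protein, averaged 0.197 ± 0.12 RPKM at 5 hpf and 102 ± 105 RPKM at 3 hpf. Over the whole matrix list 91 of 264 tested rose and 24 fell, with a median of 0.55. Those shares, 34.5% and 9.09%, were not far from 28.8% and 6.97% of all unigenes, and 9 were higher and 5 lower in the fit on the 6 libraries. Without 3 hpf library 5 the matrix list had 37 lower.

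Sulfation and glycosaminoglycan synthesis had the highest median difference of the 33 lists, as deposited and after centring. After quantile normalization the list's median was 0.46, below those of histones (0.92) and oxidative phosphorylation (0.81). Sulfotransferases move sulfate onto sugar chains, a step that gives heparan and chondroitin chains and other polysaccharides their charge. Of 270 tested unigenes 165 rose (61.1%, beside 28.8% of all), 7 fell and 98 did not pass, with a median of 1.30. The 7 became 21 without 3 hpf library 5 and 11 without 5 hpf library 6. The direction held under both scalings, with 114 higher and 23 lower by quantile and 137 and 29 by centring, but the fit on the 6 libraries called only 19 higher and 0 lower. The list's summed level was 9038, 8783 and 4263 RPKM at 5 hpf, against 1243, 2878 and 4698 RPKM at 3 hpf. Library 34 thus exceeded library 20, and the stages overlapped in this sum.

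Single enzymes were separated more clearly. HS3ST6, a heparan sulfate 3-O-sulfotransferase, had 95, 120 and 29 RPKM at 5 hpf, against 0.376, 0.773 and 4.59 RPKM at 3 hpf (4.88 ± 0.38, adjusted p = 1.99e-12). The most changed of the Gal3st1 unigenes, galactose 3-O-sulfotransferases, had 56.7, 55.1 and 18.2 RPKM at 5 hpf, against 0.376, 0.600 and 3.60 RPKM at 3 hpf. CHST8, which sulfates N-acetylgalactosamine, had 28, 27.8 and 9.24 RPKM at 5 hpf, against 0.686, 0.349 and 0.999 RPKM at 3 hpf. These 3 unigenes had their highest mean of all 13 embryonic and larval stages at 5 hpf, and their 10 hpf means were 26.3, 7.37 and 4.89 RPKM.

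Several symbols of this list sit on many unigenes. UST, a uronyl 2-sulfotransferase, rose in 15 of 15, HS3ST3A1 in 12 of 13, GAL3ST3 in 12 of 14, CHST11, a chondroitin 4-O-sulfotransferase, in 14 of 18, HS2ST1 in 10 of 12 and GAL3ST1 in 22 of 36 with 1 lower. In the fit on the 6 libraries these counts were 2, 2, 2, 0, 2 and 4. Over all unigenes the share that rose was 28.8%, and 4.8% in that fit. Unigenes with 1 symbol may be close copies whose reads the counting could split, so they are not independent of each other. Tsta3, which makes the GDP-fucose that fucosylated chains need, was the most abundant called unigene with a symbol at 5 hpf, with 3332, 3904 and 3005 RPKM there, against 421, 280 and 537 RPKM at 3 hpf (3.09 ± 0.37, adjusted p = 1.92e-08).

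**Figure D4:**
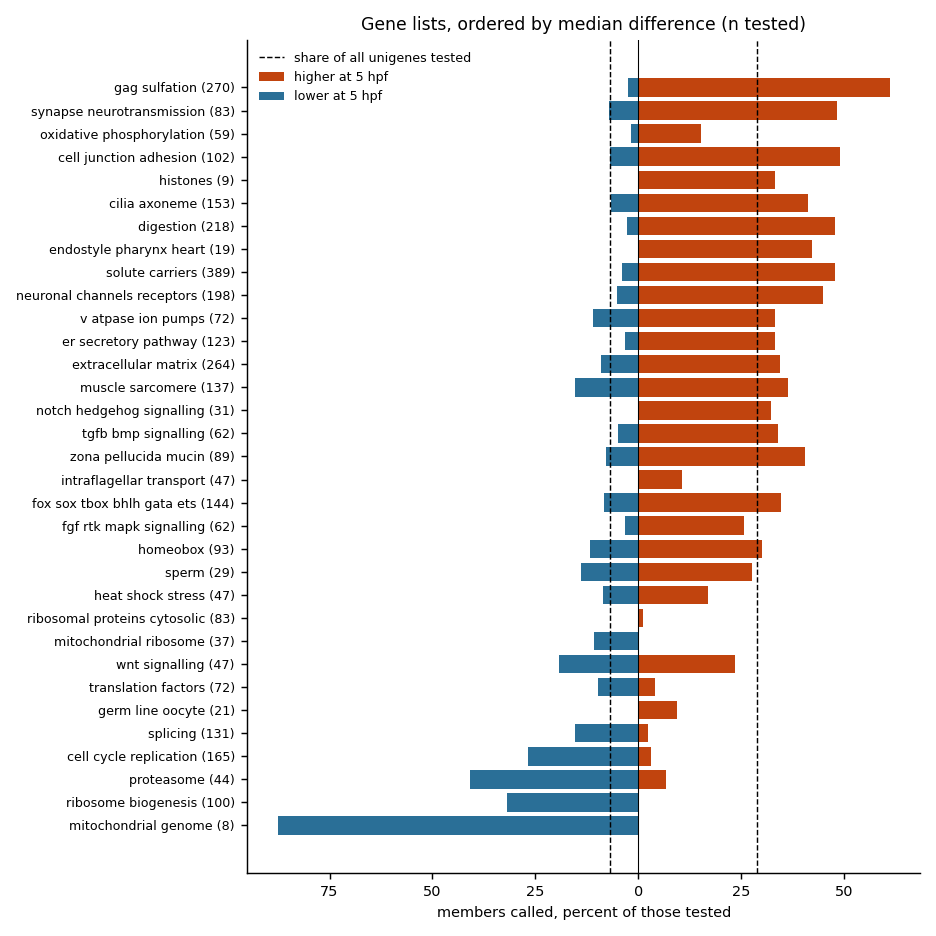
Percent of the tested members of each of 33 gene lists called higher (right) or lower (left) at 5 hpf, with lists ordered by median difference and the number tested in brackets; dashed lines mark the shares over all unigenes, 28.8% higher and 6.97% lower. Sulfation stands at the top with 61.1% higher, and the proteasome, cell cycle and ribosome biogenesis lists have more members called lower than higher (40.9%, 26.7% and 32.0% lower), with most members not called; the 7 mitochondrial genome calls rest on library 34.

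Proteins that gels and coats are built from rose in part. UMOD, a zona pellucida domain protein, had 49.5, 68.7 and 52.9 RPKM at 5 hpf, against 0.445, 0.270 and 2.71 RPKM at 3 hpf (4.92 ± 0.28, adjusted p = 1.89e-15). A unigene named TECTA, after a protein of the tectorial membrane, had 106, 229 and 190 RPKM at 5 hpf, against 24.3, 6.38 and 18.4 RPKM at 3 hpf. Among 89 tested members of the zona pellucida and mucin list 36 rose (40.4%, beside 28.8% of all) and 7 fell (3 without 3 hpf library 33). The fit on the 6 libraries had 7 higher and 0 lower.

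Several chaperones and enzymes of the secretory pathway rose. P4HB, a protein disulfide isomerase and subunit of the collagen prolyl hydroxylase, had 2731, 2759 and 1950 RPKM at 5 hpf, against 163, 175 and 782 RPKM at 3 hpf (3.12 ± 0.49). The endoplasmic reticulum chaperone HSPA5 had 463, 529 and 532 RPKM at 5 hpf, against 39.4, 39.9 and 150 RPKM at 3 hpf, and the second unigene Hspa5 averaged 701 ± 62.3 RPKM at 5 hpf and 124 ± 94.8 RPKM at 3 hpf. ERGIC1, of the compartment between endoplasmic reticulum and Golgi, rose by 3.43 ± 0.31. The stages did not overlap for these 4. Of the pathway's members 41 rose (33.3% of those tested, beside 28.8% of all), 4 fell (2 without 3 hpf library 33) and 78 did not pass, and the direction stayed under scaling, with 38 and 9 by quantile and 30 and 10 by centring. In the fit on the 6 libraries 16 members were higher and 1 lower. The summed level was 17751 to 20725 RPKM at 5 hpf and 8963 to 12847 RPKM at 3 hpf, without overlap.

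Many unigenes of the junction and transporter lists rose, and a few fell. Gjd2, a connexin of gap junctions, had 2149, 1625 and 1218 RPKM at 5 hpf, against 33.5, 76.4 and 672 RPKM at 3 hpf, and missed the threshold in the fit on the 6 libraries (adjusted p = 0.0713). The tight junction claudin CLDN1 had 23.2, 29.8 and 19.4 RPKM at 5 hpf, against 0.142, 0.122 and 0.468 RPKM at 3 hpf. Cldn19, a claudin already abundant in the egg, fell to 23.3, 22.3 and 41.6 RPKM at 5 hpf, against 915, 579 and 220 RPKM at 3 hpf (-4.08 ± 0.34, adjusted p = 8.60e-12). The list held 102 tested unigenes, of which 50 rose (49%, beside 28.8% of all) and 7 fell, with a median of 0.83. The 7 became 14 without 3 hpf library 5 and 4 without 3 hpf library 33. In the fit on the 6 libraries 10 were higher and 3 lower.

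Among solute carriers 186 of 389 rose (47.8%, beside 28.8% of all) and 15 fell (24 without 3 hpf library 5). The fit on the 6 libraries had 27 higher and 1 lower, and the direction held with 100 and 41 by quantile and 129 and 39 by centring. SLC7A9, a subunit of an amino acid exchanger of gut and kidney, had 23.6, 25.8 and 31.7 RPKM at 5 hpf, against 0.155, 0.377 and 3.19 RPKM at 3 hpf. The phosphate carrier Slc34a2 had 17.4, 12.6 and 13.2 RPKM at 5 hpf, against 0, 0 and 1.14 RPKM at 3 hpf. AQP9, a water and glycerol channel, had 41.6, 55.5 and 28.3 RPKM at 5 hpf, against 0.581, 0.795 and 0.916 RPKM at 3 hpf. In the list of ion pumps, channels and related enzymes, which holds AQP9, 24 of 72 rose (33.3%) and 8 fell (11.1%), beside 28.8% and 6.97% of all. The list had 9 higher and 2 lower in the fit on the 6 libraries. Its largest decreases were a carbonic anhydrase, CA4, and the ammonium channel Rhag, which had 4.49, 2.05 and 9.52 RPKM at 5 hpf, against 281, 426 and 93.1 RPKM at 3 hpf (-5.33 ± 0.48).

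Many genes of motile cilia and neurons rose, several of them at low levels, and the summed levels of their lists overlapped between stages. The axoneme list summed to 2313, 2468 and 853 RPKM at 5 hpf, against 606, 861 and 1381 RPKM at 3 hpf. Of 153 axoneme unigenes 63 rose (41.2%, beside 28.8% of all) and 10 fell (5 without 3 hpf library 5). Scaling gave 32 and 10 by quantile and 51 and 18 by centring. The fit on the 6 libraries called only 3 of the 153 higher, a smaller share than the 4.8% of all unigenes. Dnai1, an intermediate chain of outer dynein arms, had 22.9, 26.9 and 9.80 RPKM at 5 hpf, against 0.102, 0.284 and 5.28 RPKM at 3 hpf. Cfap20, of the ciliary doublets, had 69.8, 116 and 87.4 RPKM at 5 hpf, against 1.12, 1.11 and 7.83 RPKM at 3 hpf (4.72 ± 0.40). All 11 tested unigenes named DNAH3, an inner arm dynein heavy chain, rose, none of them by 4-fold, and none passed in the fit on the 6 libraries. Intraflagellar transport, which carries cargo along cilia, had 5 of 47 higher (10.6%, below the 28.8% of all) and 0 lower. This list had 3 higher and 6 lower after quantile normalization, and 0 higher and 5 lower after centring. Its higher count was 2 without 3 hpf library 33 and 3 without 5 hpf library 7, and its lower count 2 without 3 hpf library 5 and 1 without 5 hpf library 20. None of its members passed in the fit on the 6 libraries.

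The synapse list had 40 of 83 members higher (48.2%, beside 28.8% of all) and 6 lower. The list of channels and receptors had 89 of 198 higher (44.9%) and 10 lower. In the fit on the 6 libraries these were 6 and 4, and 3 and 0. The 3 channels and receptors are a smaller share than the 4.8% of all unigenes called higher there. After quantile normalization the synapse list had 24 higher and 14 lower and the channels and receptors 24 and 18. After centring these were 32 and 10, and 55 and 22. The share of higher channels and receptors was below that of all unigenes after quantile normalization (2820 of 18704) and above it after centring (3614 of 18704). The 10 lower channels and receptors became 17, 3 and 5 without 3 hpf library 5, 33 and 34. The synapse list summed to 2211, 1920 and 1310 RPKM at 5 hpf, against 989, 1877 and 2264 RPKM at 3 hpf, where library 34 was the highest of the 6. The channels and receptors summed to 1918, 1770 and 672 RPKM at 5 hpf, against 274, 1081 and 1434 RPKM at 3 hpf. GABBR2, a GABA receptor subunit, had 147, 151 and 30.2 RPKM at 5 hpf, against 0.909, 1.77 and 14.4 RPKM at 3 hpf. Slc6a13, a GABA transporter, had 22.3, 45.7 and 5.83 RPKM at 5 hpf, against 0, 0.19 and 0.613 RPKM at 3 hpf. Ncs1, a neuronal calcium sensor, averaged 9.18 ± 1.35 RPKM at 5 hpf and 0.683 ± 0.806 RPKM at 3 hpf. Its relative HPCAL1 fell in turn to 1.21, 0.532 and 0.619 RPKM at 5 hpf, against 45.2, 79.4 and 25 RPKM at 3 hpf (-4.70 ± 0.36). Library 20 was the lowest 5 hpf library for Dnai1, GABBR2 and Slc6a13.

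Transcription factors were divided. Otx2, a homeobox factor of the anterior brain, had 2.17, 1.27 and 0 RPKM at 5 hpf, against 15.8, 53 and 25.3 RPKM at 3 hpf (-3.90 ± 0.37, adjusted p = 1.63e-10). VAX1, an eye and forebrain homeobox factor, fell to 17.6, 11.6 and 8.94 RPKM at 5 hpf, against 82.6, 110 and 83.7 RPKM at 3 hpf. Alx1, a factor of mesenchyme and skeleton, had 40.9, 42.4 and 31 RPKM at 5 hpf, against 2.10, 2.94 and 11.2 RPKM at 3 hpf. Esrrb, an orphan nuclear receptor, fell to 0.854, 0.797 and 0.238 RPKM at 5 hpf, against 30.2, 80.1 and 27.8 RPKM at 3 hpf. Of 93 homeobox unigenes 28 rose (30.1%) and 11 fell (11.8%), and the excess of higher calls was lost under scaling, with 19 and 20 by quantile and 22 and 24 by centring. For the other factor families (Fox, Sox, T-box, bHLH, GATA, ETS and nuclear receptors) 50 of 144 rose and 12 fell, with 37 and 23 by quantile and equal numbers, 33 and 33, by centring. Without 3 hpf library 5 the lower counts were 21 for homeobox unigenes and 25 for the other families. In the fit on the 6 libraries 1 homeobox unigene was higher and 2 lower, and 4 and 2 of the other families. In the authors' own list of transcription factors 93 of 429 tested unigenes were higher and 42 lower, with a median of 0.07, beside 0.31 for all unigenes. The shares over all unigenes were 28.8% and 6.97%, and the fit on the 6 libraries called 10 of these factors higher and 4 lower.

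Among signalling genes both directions occurred. WNT4, a secreted Wnt ligand, fell to 2.32, 0.589 and 1.52 RPKM at 5 hpf, against 33, 35.7 and 13.3 RPKM at 3 hpf (-3.46 ± 0.36). Of the Wnt receptors, Fzd2 averaged 60.3 ± 10.4 RPKM at 5 hpf and 240 ± 89.1 RPKM at 3 hpf, while Fzd6 averaged 50.7 ± 31.9 RPKM at 5 hpf and 11.6 ± 7.03 RPKM at 3 hpf. The Wnt list had 11 of 47 higher (23.4%, beside 28.8% of all) and 9 lower (19.1%, beside 6.97%). It had 8 and 14 after quantile normalization, 10 and 17 after centring, and 0 and 2 in the fit on the 6 libraries. Its higher count was 7 without 3 hpf library 5, and its lower count was 4 without 3 hpf library 33 and 5 without 5 hpf library 20. FGF9, a ligand of the fibroblast growth factor family, had 0.908, 0.0551 and 1.28 RPKM at 5 hpf, against 20.4, 7.12 and 8.70 RPKM at 3 hpf, whereas the receptor FGFR1 had 15, 20.4 and 1.78 RPKM at 5 hpf, against 0.114, 0.171 and 0.749 RPKM at 3 hpf. The list of fibroblast growth factor and receptor kinase signalling had 16 of 62 higher (25.8%, beside 28.8% of all) and 2 lower, and 7 and 9 after quantile normalization. The 2 became 7 without 3 hpf library 5 and 1 without 3 hpf library 33 or 5 hpf library 20. In the fit on the 6 libraries 2 were higher and 0 lower.

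Some regulators of TGF-beta signalling rose, while the list as a whole had a share of higher calls near that of all unigenes. Ltbp1, which binds latent TGF-beta in the matrix, had 64.4, 113 and 90.2 RPKM at 5 hpf, against 3.56, 1.18 and 3.15 RPKM at 3 hpf (4.67 ± 0.28, adjusted p = 7.83e-15). The activin antagonist Fst averaged 28.9 ± 14.5 RPKM at 5 hpf and 0.632 ± 0.696 RPKM at 3 hpf. The inhibitory SMAD7 averaged 33.3 ± 10.5 RPKM at 5 hpf and 1.35 ± 1.51 RPKM at 3 hpf. In this list 21 of 62 rose (33.9%, beside 28.8% of all) and 3 fell, with 11 and 9 by quantile, 13 and 11 by centring and 3 and 0 in the fit on the 6 libraries. The higher count was 13 without 3 hpf library 5, 5 hpf library 6 or 5 hpf library 7, and the lower count 8 without 3 hpf library 5 and 0 without 3 hpf library 33. In the Notch and hedgehog list 10 of 31 rose (32.3%, beside 28.8% of all) and 0 fell, with 4 lower after centring and 3 after quantile normalization. The fit on the 6 libraries called 1 of its members higher and 0 lower. The ligand Dll1 had 12.9, 29.8 and 12.3 RPKM at 5 hpf, against 0.221, 0.0629 and 0.399 RPKM at 3 hpf, and the Notch target HES1, a repressor, had 27.9, 29.3 and 23.5 RPKM at 5 hpf, against 0.310, 0.950 and 4.74 RPKM at 3 hpf.

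The lists with more members lower than higher included those of growth and division. Ribosome biogenesis had 32 of 100 members lower (32.0%, beside 6.97% of all) and 0 higher, with a median of -1.03. Quantile normalization and centring gave 65 and 72 lower. None passed in the fit on the 6 libraries. The summed level of this list was 6475, 5344 and 8945 RPKM at 5 hpf, against 8443, 14270 and 12246 RPKM at 3 hpf, so the stages overlapped. The lower count was 61 without 3 hpf library 5, 7 without 3 hpf library 33, 18 without 3 hpf library 34, 20 without 5 hpf library 7 and 21 without 5 hpf library 20. UTP4, of the complex that processes 18S ribosomal RNA, had 18.3, 17.2 and 24.5 RPKM at 5 hpf, against 71.3, 74.7 and 51.6 RPKM at 3 hpf (-1.67 ± 0.33, adjusted p = 8.72e-05, and 0.0526 in the fit on the 6 libraries). Utp6, of the same complex, averaged 29.6 ± 5.62 RPKM at 5 hpf and 97.4 ± 24.4 RPKM at 3 hpf. The stages did not overlap for either. Cytosolic ribosomal proteins themselves had 1 of 83 higher and 0 lower, with a median of 0.02, and no member passed in the fit on the 6 libraries. Their share of RPKM differed within each stage, as given above.

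Of 165 cell cycle and replication unigenes 44 fell (26.7%, beside 6.97% of all) and 5 rose. The fit on the 6 libraries had 8 lower and 0 higher, and the 2 scalings had 91 and 97 lower. Without 3 hpf library 5 and without 3 hpf library 33 the lower count was 68 and 27. CCNE1, the cyclin that starts DNA replication, had 11.3, 8.85 and 5.20 RPKM at 5 hpf, against 50.2, 147 and 87.7 RPKM at 3 hpf (-3.27 ± 0.36, adjusted p = 4.14e-09). UBE2C, the conjugating enzyme of the anaphase-promoting complex, averaged 176 ± 58.6 RPKM at 5 hpf and 411 ± 49.6 RPKM at 3 hpf. The list's summed level was 3816 to 6919 RPKM at 5 hpf and 8125 to 11690 RPKM at 3 hpf, without overlap. CDC14A, a phosphatase placed in this list and also a gene of cilia, was one of the 5 that rose.

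The proteasome, which degrades tagged proteins, had 18 of 44 members lower (40.9%) and 3 higher, beside 6.97% and 28.8% of all unigenes. The fit on the 6 libraries called 1 of its members higher and 0 lower. Psmc1, a base ATPase, averaged 42.5 ± 5.60 RPKM at 5 hpf and 150 ± 63.6 RPKM at 3 hpf (-1.72 ± 0.25, adjusted p = 6.30e-07). PSMC4, another base ATPase, averaged 18.9 ± 7.80 RPKM at 5 hpf and 64.6 ± 3.48 RPKM at 3 hpf. PSMD10, an assembly chaperone of that base, rose by 2.89 ± 0.42. Splicing factors had 20 of 131 lower (15.3%; 8 without 3 hpf library 33 and 12 without 5 hpf library 7) and 3 higher, and translation factors 7 of 72 lower (1, 4 and 1 without 3 hpf library 33, 5 hpf library 6 and 5 hpf library 7) and 3 higher. The nuclear-encoded oxidative phosphorylation list had 9 of 59 higher (15.3%, below the 28.8% of all) and 1 lower. Its median was 0.88, beside 0.31 over all unigenes, and by centring it had 0 higher and 2 lower. Its higher count was 14, 1, 4 and 4 without 3 hpf library 5, 3 hpf library 33, 5 hpf library 7 and 5 hpf library 20. Mitochondrial ribosomal proteins had 0 of 37 higher and 4 lower (2 without 3 hpf library 5 and 1 without 5 hpf library 20), and histones 3 of 9 higher (1 without 3 hpf library 33) and 0 lower. In the fit on the 6 libraries 1 translation factor was higher. No member of the splicing, oxidative phosphorylation, mitochondrial ribosome and histone lists passed there.

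Lists of other cell types and of handling were counted in the same way. Of 21 germ line unigenes 2 rose (9.52%, below the 28.8% of all) and 0 fell, with 7 lower after quantile normalization and 5 lower without 3 hpf library 5. BOLL, 1 of the 2 that rose, had 280, 269 and 281 RPKM at 5 hpf, against 28.9, 35.5 and 119 RPKM at 3 hpf. Sperm genes had 8 of 29 higher (27.6%) and 4 lower (13.8%), beside 28.8% and 6.97% of all, and the 4 became 2 without 3 hpf library 5 and 7 without 3 hpf library 33. Endostyle, pharynx and heart genes had 8 of 19 higher (42.1%, beside 28.8% of all) and 0 lower, with 3 and 5 after centring. Their lower count was 1, 3 and 2 without 3 hpf library 5, 3 hpf library 33 and 5 hpf library 7. Heat shock and stress genes had 8 of 47 higher (5 without 3 hpf library 5, 4 without 3 hpf library 33 and 4 without 5 hpf library 7) and 4 lower, and 5 with 12 lower after quantile normalization, and those named among the 8 include the reticulum chaperones described above. For the 8 unigenes named after mitochondrially encoded genes, 7 calls were lower, and the summed level was at most 1.11 RPKM in each of 5 libraries and 283 RPKM in 3 hpf library 34, the highest of the 43. Without that library none of the 8 was called, and none without any single 5 hpf library. In the fit on the 6 libraries 1 germ line, 1 sperm and 2 stress unigenes were higher. None of these lists had lower calls there, and no endostyle list or mitochondrial unigene passed.

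For some symbols, unigenes that share the symbol moved in opposite directions. Of 1667 symbols borne by at least 2 tested unigenes (letter case ignored), 128 had called members both higher and lower, and for 28 of them by at least 4-fold each way. The fit on the 6 libraries left 11 such symbols, and quantile normalization and centring gave 142 and 204. The pairs below were picked for the size of the opposite changes, so they are a description without a further test.

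CA4, a membrane-bound carbonic anhydrase, was the symbol of the largest decrease with a name: 4.23, 3.40 and 13.1 RPKM at 5 hpf, against 4438, 1318 and 947 RPKM at 3 hpf (-8.01 ± 0.58). A second CA4 unigene had 1368, 1283 and 2198 RPKM at 5 hpf, against 113, 51.6 and 452 RPKM at 3 hpf (3.49 ± 0.56), and was among the 5 most abundant of the called unigenes with a symbol at 5 hpf. Hmcn1 likewise had a unigene at 104, 438 and 159 RPKM at 5 hpf, against 0.532, 0.294 and 6.65 RPKM at 3 hpf, beside the one described above that fell. Over 44 tested unigenes of that symbol 13 rose (29.5%, near the 28.8% of all unigenes) and 4 fell, with 2 and 1 in the fit on the 6 libraries.

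The connexin GJA10 rose in one unigene, with 82.3, 105 and 75 RPKM at 5 hpf, against 0, 0.201 and 6.73 RPKM at 3 hpf. Another unigene of the symbol had 36.7, 17.8 and 48.3 RPKM at 5 hpf, against 623, 891 and 438 RPKM at 3 hpf (-4.26 ± 0.40). For NR6A1 the unigene that fell had 1.26, 1.14 and 0.674 RPKM at 5 hpf, against 20.3, 240 and 22.6 RPKM at 3 hpf. SEMA5B, a semaphorin that guides axons, had one unigene at 58.6, 98.3 and 37.5 RPKM at 5 hpf, against 0.304, 0.173 and 3.00 RPKM at 3 hpf, and another at 0.142, 1.69 and 1.96 RPKM at 5 hpf, against 98.4, 140 and 19 RPKM at 3 hpf. Among the 12 MYH6 unigenes 6 rose and 5 fell.

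**Figure D5:**
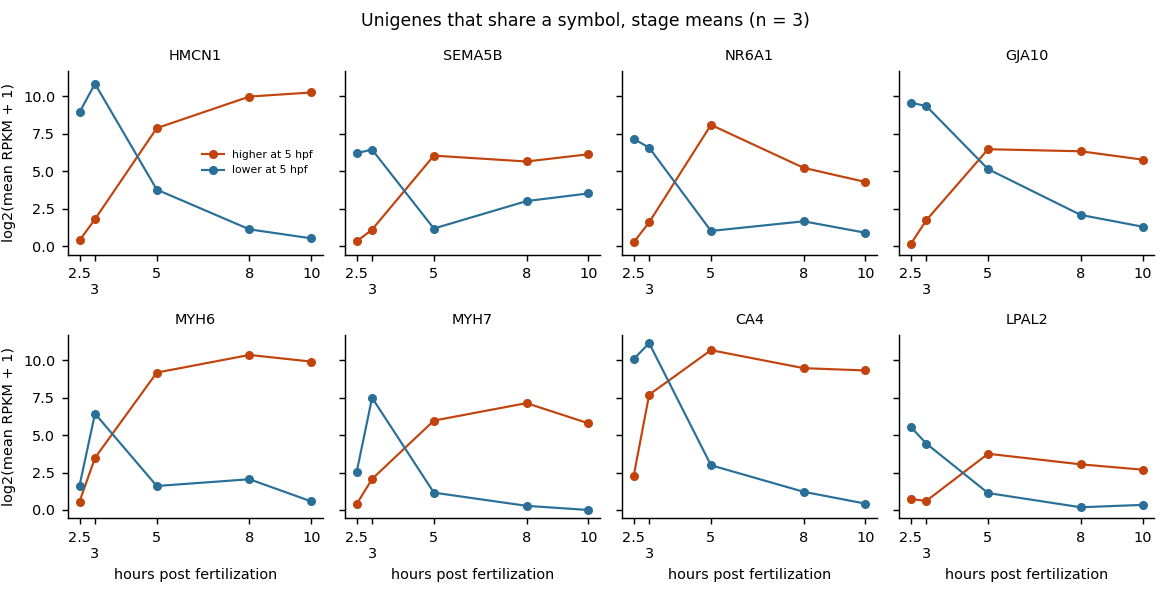
Stage means (n = 3 libraries) from 2.5 to 10 hpf, as log2(mean RPKM + 1), of the unigenes with the largest increase and the largest decrease at 5 hpf among those sharing a symbol, for the 8 symbols with the largest opposite changes. In each panel the unigene that fell was above the other at 3 hpf and below it at 5 hpf, as for CA4, with means of 6.92 and 1616 RPKM at 5 hpf, against 2234 and 206 RPKM at 3 hpf.

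Unigenes with a symbol made up 9996 of the 18704 tested, 2630 of the 5380 that rose and 793 of the 1304 that fell, and the others had none. The largest of these decreases (OD_K29COV8_DN9566_c0_g2_i1) had 28.9, 3.18 and 67.2 RPKM at 5 hpf, against 12637, 7945 and 6706 RPKM at 3 hpf (-8.75 ± 0.85), above every named unigene that fell. The largest increase (OD_K21COV6_DN10966_c0_g1_i4) had 244, 437 and 1129 RPKM at 5 hpf, against 0.333, 0.142 and 6.35 RPKM at 3 hpf (7.79 ± 0.52).

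The hemisphere set, with 4 libraries each labelled vegetal and animal at 12 hpf and prepared with an unstranded kit, gave another readout of the same unigenes, as a description. Of the 15 unigenes with a symbol and the largest increase, 11 had a vegetal mean at least 10 times the animal mean. CTRL had 1002 RPKM in vegetal and 2.09 RPKM in animal libraries, and the MYH6 unigene 322 and 1.03 RPKM. The other 4 were higher in animal libraries, among them Col6a1 at 221 RPKM in vegetal and 1207 RPKM in animal libraries. All 15 of the largest decreases were under 20 RPKM in both, where the medians over all unigenes tested were 9.24 RPKM (vegetal) and 4.75 RPKM (animal). Shares over all unigenes at the 10-fold and 20 RPKM limits were not counted. By at least 2-fold on the log2(RPKM + 1) scale, 39.5% of unigenes that rose were higher in vegetal and 25.1% in animal libraries. Those shares were 17.3% and 7.36% of unigenes that fell, and 24.4% and 12.3% of all tested. The list medians of vegetal minus animal log2 values were 2.06 for muscle, 2.70 for the axoneme and -1.02 for sulfation, beside 0.23 over all unigenes tested. Tsta3 and HS3ST6 were higher on the animal side, at 663 against 4416 RPKM and 7.29 against 79.6 RPKM.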

How the data were processed

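The deposited tables hold RPKM per unigene and library, made by the authors with HISAT2, per the submitters' processing notes, which give no version; the staged kit was strand-specific per the labels. Reads per library and the percent aligned come from a sequencing table the authors deposited. The 6 libraries were taken from the first deposited sheet of staged values. A second deposited sheet holds rescaled signal and a ratio of 5 hpf to 3 hpf, neither of which enters a result. A further 154 deposited columns of values per library were not used.

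Unigenes at 1 RPKM or more in at least 2 of 43 libraries were kept (18704 of 19277). limma 3.58.1 in R 4.3.3 (lmFit with a mean per stage, eBayes with trend, 28 residual degrees of freedom, two-sided) was run on log2(RPKM + 1), with Benjamini-Hochberg adjustment over all unigenes; the fit was tested on simulated data with 200 changed unigenes. Counts of reads per unigene were not used, so no interval for counting error is given. Lists of 33 gene groups were matched by symbol, and 90 of their 3318 tested unigenes are in more than 1. The interval and the lists were chosen with earlier results of these data known.

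Named unigenes are the 15 largest changes in each direction with a symbol, an adjusted p under 0.05 and no overlap between stages, up to 4 called members of each list with the smallest p, the 5 most abundant called ones of each stage, and 2 without a symbol in each direction; the opposite pairs and the symbols on many unigenes were added after their values were seen. Alternatives were other pseudocounts, filters, scalings, a fit on the 6 libraries and leaving out libraries. Some genes that the rule names are not reported here.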

Additional observations from a re-analysis of the deposited data

How the results depend on the processing

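No named unigene changed direction under any alternative run: of 156, 65 lost their call in the fit on the 6 libraries, 16 after quantile normalization, 17 after centring on the median, 7 with a pseudocount of 0.1, 2 with one of 5, and 4 to 13 when single libraries were left out. The kept direction was largely fixed by their choice. Without overlap between stages, another pseudocount or a left-out library cannot reverse a difference. The fit on the 6 libraries has the same differences as the main fit. The fit on the 6 libraries called 1048 unigenes (898 higher, 150 lower; at least 4-fold 758 and 135), against 6684 (5380, 1304; 2062 and 293), since it has fewer libraries and a larger spread. Quantile normalization gave 2820 higher and 2981 lower (4-fold 1360 and 1058), and centring 3404 lower (4-fold 1292 higher and 634 lower). A pseudocount of 0.1 gave 3993 and 509 called 4-fold higher and lower, and one of 5 gave 748 and 147, because it sets how far low values can move. Leaving out 1 library at a time gave 5227 to 7601 called, 4136 to 6684 higher, 836 to 2211 lower, 1642 to 2937 called 4-fold higher and 244 to 630 called 4-fold lower; the lower counts moved by over 1.5 times without 3 hpf library 5 (2211) and without 3 hpf library 33 (836). Within the sequencing run that holds the other 5 libraries, which leaves out library 20, 6684 were higher and 917 lower. Chosen after seeing the data, leaving out libraries 34 and 20 gave 8754 called, with 3901 called 4-fold higher, and leaving out libraries 5 and 20, those with the larger ribosomal protein share, gave 5421 higher and 1359 lower. The step from 8 to 10 hpf had 134 called with a pseudocount of 0.1 and 802 with 1. Of the 33 lists, 20 had a median above that of all unigenes, and 16 to 21 under the alternatives. The median vegetal minus animal value of the unigenes that rose was 0.36, and 0.70 with a pseudocount of 0.1, with 0.33 to 0.46 when single 12 hpf libraries were left out. No paired analysis was possible because the 5 hpf and 3 hpf libraries share no replicate number. Where the cause of a change in a count is not stated, the cause was not tested.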

Other observations

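Some symbols were carried by many unigenes, and the shares over all unigenes were 28.8% higher and 6.97% lower. Calmodulin CALM3 had 12 of 17 higher (70.6%) and 2 lower, and the mannose receptor MRC1 11 of 14 higher (78.6%) and 0 lower. Plasminogen-named PLG had 12 of 17 (70.6%) and 0, the secreted phospholipase PLA2G2D 9 of 17 (52.9%) and 0, and the potassium channel KCNK10 10 of 23 (43.5%) and 0. The serine/threonine kinase PIM3 had 1 of 14 higher (7.14%) and 4 lower. In the fit on the 6 libraries the higher counts were 4 for CALM3, 4 for MRC1, 0 for PLG, 3 for PLA2G2D, 0 for KCNK10 and 0 for PIM3.

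The deposited second sheet of staged values does not match its column headings at these stages. The column headed 3 hpf library 34 held the values of 5 hpf library 6 times 0.897, and the column headed 5 hpf library 20 held those of 8 hpf library 8 times 6.32, with an SD of the log ratio of at most 1.51e-05. In the authors' deposited table the ratio of 5 hpf to 3 hpf equals the ratio of the means of those columns, each plus 1, in 19277 of 19277 rows (within 0.001). By that ratio 4793 tested unigenes were at least 4-fold higher and 1266 at least 4-fold lower, against 2042 and 404 for the same ratio of the first sheet's means. The 2 ratios differed by 2-fold or more for 7166 unigenes, and the direction was opposite for 160 of the 5380 unigenes called higher here and 63 of the 1304 called lower.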
